A study of Mus musculus with 12 samples.

Results

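The tumour necrosis factor (TNF) superfamily genes described here are 3 ligands, Tnf, Tnfsf10 and Tnfsf11, and 6 receptors, Tnfrsf1a, Tnfrsf1b, Tnfrsf10b, Tnfrsf11b, Tnfrsf12a and Fas. They were taken by exact symbol and are 9 of the 24147 genes counted in each library. They were chosen by their measured levels and differences in these 12 libraries, without a record of which comparison was used, so their levels and differences are given as a description with no p-value. RNA came from the lens capsule of 2 month old mice with the lens epithelial cells that stay attached to it when the fiber cells are removed in vivo, a model of cataract surgery. Capsules were taken at 0 h, directly after the operation, or 48 h afterwards. The wild type (WT) group was C57BL/6 with no allele change named, and FNcKO mice carried a conditional knockout of fibronectin (gene Fn1) on a mixed C57BL/6, 129 and FVB/N background. Genotype and strain therefore coincide and cannot be told apart. There were 3 libraries in each of the 4 groups, and all mice had the same operation. The sources used here name neither the Cre driver nor the number of animals in a library. The design text calls the replicates biological, and nothing else says that they are separate animals, so the spread below may be partly technical.

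TNF family ligands are mostly trimeric proteins of the cell surface that can be shed, and they act by clustering receptors of the matching family. Some receptors carry a cytoplasmic death domain and can start caspase activation. Others recruit TRAF adaptors and lead to NF-kappaB and MAP kinase signalling, and a few are soluble or truncated decoys that bind ligand without signalling. In the eye these cytokines are best known from inflammation after injury, where infiltrating leukocytes and resident cells can both make and bind them.

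Library totals ran from 8368160 to 10862573 counts. Levels are counts scaled by the TMM library factors to a common total (CPM), and differences between groups are the log2 values fitted by edgeR to all 12 libraries, with an approximate standard error (SE). Fn1 had 15.5 to 23.1 CPM in WT and 8.32 to 16.8 CPM in FNcKO libraries at 0 h, and 528 to 1515 CPM in WT and 146 to 688 CPM in FNcKO libraries at 48 h. The genotypes overlapped at both times, and counts over the whole gene do not show a deleted part. Lens epithelial markers were present in every group. Pax6, a transcription factor of lens epithelium, averaged 456, 372, 514 and 355 CPM in WT 0 h, WT 48 h, FNcKO 0 h and FNcKO 48 h, and Foxe3, another, averaged 83.1, 26.2, 103 and 31.8 CPM. Of the 6 lens epithelial markers 2 were lower at 48 h in WT and 5 in FNcKO (edgeR), and their sum went from 2871 to 3933 CPM at 0 h to 1770 to 1974 CPM at 48 h in WT, and from 3904 to 4274 CPM to 1113 to 2335 CPM in FNcKO. Summed lens fiber markers took 88766 to 219282 CPM at 0 h and 10944 to 82444 CPM at 48 h, and the part of these shifts in the members' levels was not tested.

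Promoter sequences are shown for 3 of the members, Tnfsf10 because it was the member that differed between the genotypes, Tnfrsf12a because it had the highest level per length at 48 h, and Fas because it held an AP-1 match. They are the 250 bases before the annotated start from RefSeq (GRCm38.p6, the assembly of mm10), 5′ to 3′ on the gene's strand. A promoter was found for 7 of the 9 members, not for Tnfrsf11b and Tnfrsf10b. Capitals mark a match to the AP-1 motif TGANTCA or to AANNGAAA, the core bound by interferon regulatory factors, on either strand.
Tnfsf10, chr3:27316827-27317076, plus strand: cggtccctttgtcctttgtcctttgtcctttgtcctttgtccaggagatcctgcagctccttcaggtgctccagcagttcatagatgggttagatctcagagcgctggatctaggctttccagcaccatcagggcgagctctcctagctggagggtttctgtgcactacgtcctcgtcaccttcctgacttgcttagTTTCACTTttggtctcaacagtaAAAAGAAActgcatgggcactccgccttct
Tnfrsf12a, chr17:23677450-23677699, minus strand: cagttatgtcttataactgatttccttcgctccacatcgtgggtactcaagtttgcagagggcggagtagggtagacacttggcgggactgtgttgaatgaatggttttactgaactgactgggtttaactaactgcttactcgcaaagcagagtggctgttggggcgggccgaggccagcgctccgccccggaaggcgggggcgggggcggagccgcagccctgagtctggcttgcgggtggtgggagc
Fas, chr19:34290409-34290658, plus strand: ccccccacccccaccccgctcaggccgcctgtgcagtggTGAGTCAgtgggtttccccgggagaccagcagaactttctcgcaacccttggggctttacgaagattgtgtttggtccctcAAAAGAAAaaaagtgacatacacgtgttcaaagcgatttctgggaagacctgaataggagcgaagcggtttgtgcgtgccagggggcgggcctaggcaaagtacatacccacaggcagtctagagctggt
The NF-kappaB consensus was found in none of the 7 windows of 300 bases, which run from 250 bases before to 50 after the start, and in 4.51% of 32851 promoters of that length. The AP-1 motif was found in Fas alone of the 7, with its first base at −211, and in 7.81% of all. The interferon regulatory factor core, added after the sequences had been seen, was found in Tnfsf10 (first bases −53 and −30), Tnfrsf1b (−10) and Fas (−130 and 40), and in 23.9% of all. The matches in the Fas window do not overlap. The absence of a match says only that these letters are not in this window.

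Over time, 6 of the 8 members that passed the low-count filter were past the fit's threshold (adjusted p under 0.05) in each genotype, and each was higher at 48 h. In WT these were Tnf, Tnfrsf1a, Tnfrsf1b, Tnfrsf11b, Tnfrsf12a and Fas, where 19.1% of all 14560 tested genes were called higher and 32.6% were called in either direction. In FNcKO they were Tnf, Tnfsf10, Tnfrsf1a, Tnfrsf1b, Tnfrsf11b and Tnfrsf12a, where 14.9% were called higher and 24.8% in either direction. The choice of the members used these values, so nothing is read from the counts. The libraries at 48 h and 0 h did not overlap in 6 of the 8 in WT, against 51.5% of all tested genes, and in 7 of the 8 in FNcKO, against 37.5%. The median log2 difference of the 8 was 1.40 in WT and 1.69 in FNcKO, and that of all tested genes was 0.016 and 0.0018. Tnfsf11 was the member that did not pass the filter. A member that passed only through its 48 h libraries had to be higher there, which holds for Tnf and Tnfrsf11b.

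**Figure D1:**
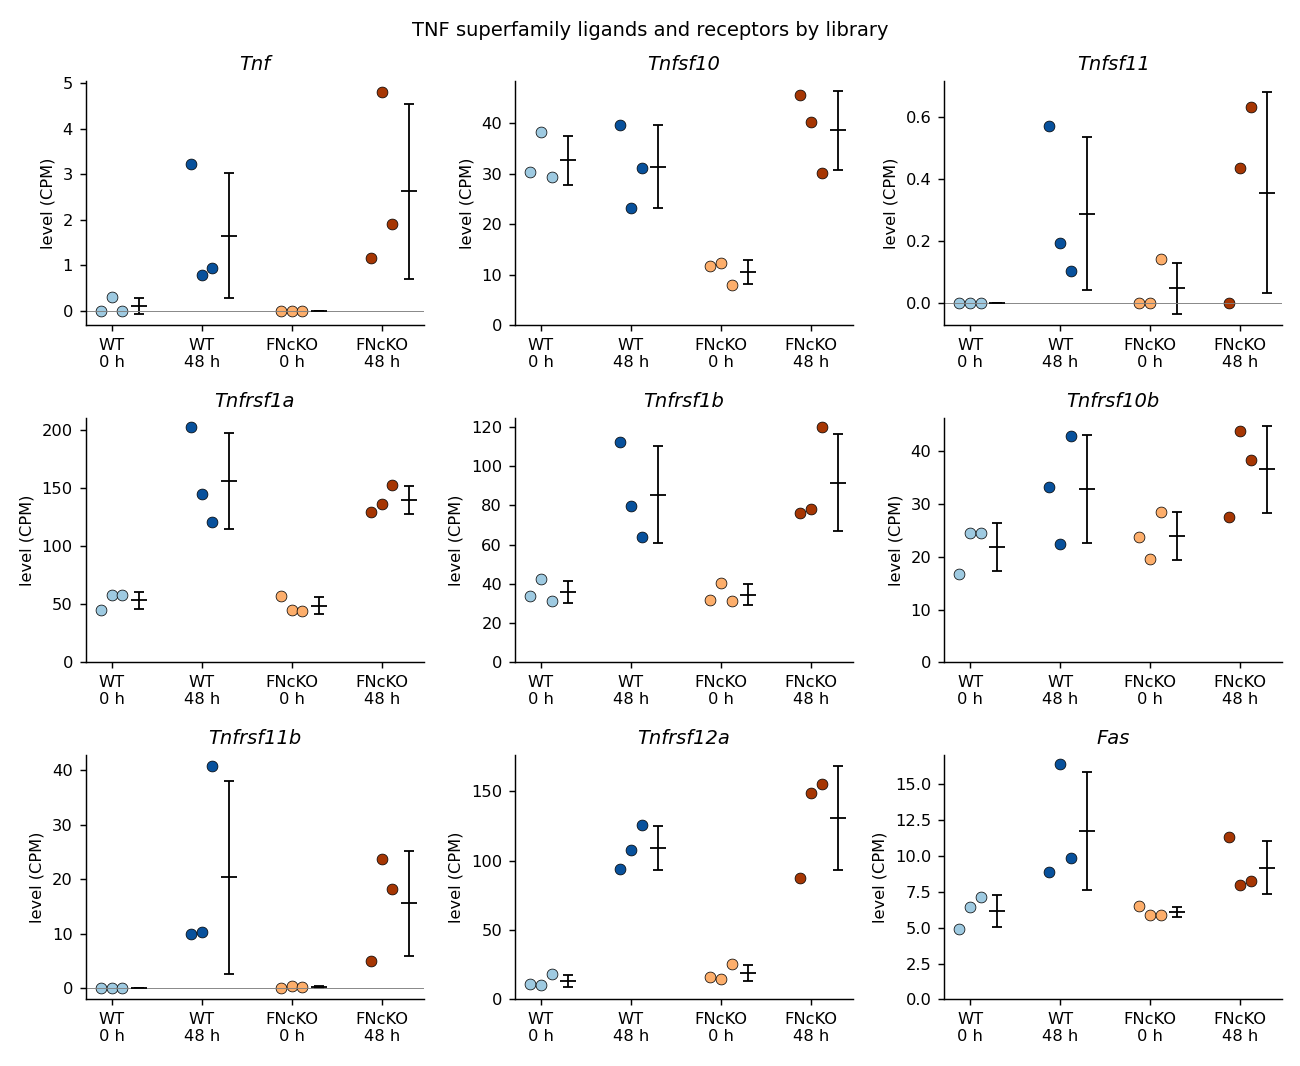
Level of each of the 9 members (CPM, linear axes that differ between panels) in the 12 libraries, with replicates 1 to 3 from left to right; the bar beside each group is mean ± SD of 3 libraries. Tnf and Tnfrsf11b sit at or near 0 at 0 h in both genotypes, and Tnfsf10 is low in the FNcKO 0 h group alone.

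Tnf encodes the founding ligand of the family, a cytokine of inflammation that binds the receptors encoded by Tnfrsf1a and Tnfrsf1b. Its counts were 0, 3 and 0 in the WT 0 h libraries and 0 in each FNcKO 0 h library. At 48 h they were 34, 8 and 9 in WT and 11, 44 and 18 in FNcKO, or 3.24, 0.778 and 0.934 CPM and 1.16, 4.81 and 1.90 CPM. Every 48 h library was above every 0 h library, and the genotypes overlapped at both times. In WT the summed ratio was 15.7, from 51 against 3 counts, with an exact interval of 5.07 to 78.6 at 95% that covers counting error only. In FNcKO the 73 counts at 48 h against 0 made it at least 21.3-fold higher, taking 3 counts over the group as the limit that a count of 0 allows (0.122 CPM). Values given here and below as "at least" take the 48 h counts as exact and limit only the 0. In WT the fitted log2 value of 3.80 became 6.93 without WT 0 h replicate 2, which holds all 3 counts of its group, and 2.87 without WT 48 h replicate 1. Past the threshold in WT, Tnf fell short of it when WT 0 h replicate 1 or 3, WT 48 h replicate 1 or both 0 h replicate 1 libraries were left out.

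Tnfsf10 encodes TRAIL, a ligand that can trigger apoptosis through death receptors. It had 30.4, 38.3 and 29.4 CPM in WT at 0 h and 39.7, 23.2 and 31.2 CPM at 48 h. In FNcKO it had 11.7, 12.2 and 7.89 CPM at 0 h and 45.5, 40.2 and 30.1 CPM at 48 h. The FNcKO 0 h libraries were below the other 9, and the other 3 groups overlapped each other. The fitted log2 difference between 48 h and 0 h was −0.06 (SE 0.24) in WT and 1.86 (SE 0.25) in FNcKO, a 3.62-fold higher level. At 0 h it was 3.06-fold lower in FNcKO than in WT (log2 −1.62, SE 0.25). At 48 h the log2 difference between the genotypes was 0.30 (SE 0.24).

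Tnfsf10 was the only one of the 8 tested members past the threshold between the genotypes at 0 h, where 0.144% of all tested genes were called (0.0687% lower) and 16.6% had groups that did not overlap. Its log2 value there ran from −1.76 to −1.43 over 21 alternatives and was past the threshold in 13. It was not past it without any one of the 0 h libraries, without FNcKO 48 h replicate 2 or without both 0 h replicate 1 libraries. The difference of the 48 h responses, FNcKO minus WT, was 1.91 (SE 0.34) in log2. That value ran from 1.72 to 2.12 over the alternatives and was past the threshold with DESeq2 alone. The genotype comparison at 0 h and both comparisons over time share libraries, so these values are not independent.

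Tnfsf11 encodes RANKL, the ligand that drives osteoclast formation through RANK. None of the WT 0 h libraries held a count, and at 48 h they held 6, 2 and 1. FNcKO libraries held 0, 0 and 1 counts at 0 h and 0, 4 and 6 at 48 h. One FNcKO 48 h library was thus as low as the 0 h libraries. The summed counts gave at least a 2.77-fold higher level in WT, from 9 counts against 0, and a ratio of 8.75 in FNcKO, with an exact interval of 1.25 to 380 at 95% from 10 counts against 1. The WT value takes the 9 counts as exact, 6 of them from 1 library, so it is not a 95% limit.

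Of the receptors for TNF itself, Tnfrsf1a encodes TNFR1, which has a death domain and is expressed by most cells, and Tnfrsf1b encodes TNFR2, which has none and is best known from leukocytes and endothelium. Tnfrsf1a had 44.5, 57.7 and 57.5 CPM in WT at 0 h and 202, 145 and 121 CPM at 48 h. FNcKO libraries had 56.9, 45.2 and 43.7 CPM at 0 h and 129, 136 and 153 CPM at 48 h. Every 48 h library was higher than every 0 h library, and at each time the genotypes overlapped. The 48 h level was 2.93-fold higher in WT (log2 1.55, SE 0.20) and 2.87-fold higher in FNcKO (log2 1.52, SE 0.20).

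Tnfrsf1b had 33.7, 42.3 and 31.4 CPM in WT at 0 h and 112, 79.9 and 63.9 CPM at 48 h. Levels in FNcKO were 31.9, 40.5 and 31.1 CPM at 0 h and 76.3, 78.3 and 120.0 CPM at 48 h. Again the times did not overlap and the genotypes did. The 48 h level was 2.38-fold higher in WT (log2 1.25, SE 0.24) and 2.65-fold higher in FNcKO (log2 1.41, SE 0.24). Over the 21 alternatives the log2 difference of Tnfrsf1a ran from 1.325 to 1.763 in WT and from 1.406 to 1.797 in FNcKO. That of Tnfrsf1b ran from 1.009 to 1.463 and from 1.164 to 1.694. Both stayed past the threshold over time. The alternatives refit the data that chose the members, so this is no separate support.

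Tnfrsf12a encodes Fn14, the receptor of TWEAK, a small TRAF-binding receptor known to be induced by growth factors and tissue injury. It had 11.1, 10.2 and 18.4 CPM in WT at 0 h and 94.0, 108 and 126 CPM at 48 h. The FNcKO levels were 16.2, 14.9 and 25.5 CPM at 0 h and 87.7, 149 and 156 CPM at 48 h. Every 48 h library lay above every 0 h library. The fitted level was 8.26-fold higher at 48 h in WT (log2 3.05, SE 0.30) and 6.94-fold higher in FNcKO (log2 2.80, SE 0.29), and the genotypes differed by 0.51 (SE 0.29) at 0 h and 0.26 (SE 0.27) at 48 h in log2. Its ligand gene Tnfsf12 averaged 11.8 ± 2.5, 13.3 ± 5.6, 12.2 ± 1.7 and 13.6 ± 3.2 CPM (SD, n = 3) in WT 0 h, WT 48 h, FNcKO 0 h and FNcKO 48 h, with overlapping libraries. Tnfrsf12a overlaps Hcfc1r1 in the files' coordinates, and the sources used here do not say whether the counting used strand.

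Tnfrsf11b encodes osteoprotegerin, a secreted decoy receptor that binds RANKL and TRAIL. It had no count in any WT 0 h library, which allows up to 0.107 CPM over the group, and 105, 106 and 392 counts at 48 h. In FNcKO it had 0, 4 and 2 counts at 0 h and 47, 217 and 172 at 48 h. The 48 h libraries held 9.99, 10.3 and 40.7 CPM in WT and 4.97, 23.7 and 18.2 CPM in FNcKO, so the spread within a group was up to about the size of its mean (20.3 ± 17.6 and 15.6 ± 9.63 CPM, SD, n = 3). The summed counts made it at least 185-fold higher at 48 h in WT, and at least 95-fold without WT 48 h replicate 3, which held 392 of the 603 counts. In FNcKO the fit made it 60.4-fold higher (log2 5.92, SE 1.04), with log2 values from 5.30 to 6.79 over the alternatives, and the summed counts gave a ratio of 63.6 with an exact 95% interval of 29.0 to 174. The lowest values came when FNcKO 0 h replicate 1 was left out, alone or with WT 0 h replicate 1, and the highest when FNcKO 0 h replicate 2 was left out. At 48 h the genotypes overlapped, with a log2 difference of −0.38 (SE 0.69), which became 0.62 without WT 48 h replicate 3.

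Tnfrsf10b encodes the mouse TRAIL death receptor. It had 16.7, 24.5 and 24.6 CPM in WT at 0 h and 33.3, 22.5 and 43.0 CPM at 48 h. FNcKO libraries had 23.7, 19.6 and 28.5 CPM at 0 h and 27.6, 43.9 and 38.3 CPM at 48 h. The times overlapped in both genotypes, with log2 differences of 0.59 (SE 0.26) and 0.61 (SE 0.26) that were past the threshold in 2 of 21 alternatives each.

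Fas encodes the death receptor of Fas ligand. It had 4.92, 6.43 and 7.11 CPM in WT at 0 h and 8.85, 16.4 and 9.86 CPM at 48 h. In FNcKO it had 6.48, 5.89 and 5.88 CPM at 0 h and 11.3, 7.97 and 8.25 CPM at 48 h. The times did not overlap in either genotype. The level at 48 h was 1.91-fold higher in WT (log2 0.93, SE 0.29) and 1.51-fold higher in FNcKO (log2 0.59, SE 0.30). The WT value became 0.61 without WT 48 h replicate 2, and it was short of the threshold there, with the replicate number as a block, and when WT 0 h replicate 1 or 2 or both 0 h replicate 1 libraries were left out. Fas overlaps Mir3084, Mir3084-2 and Snora19 in the files' coordinates.

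**Figure D2:**
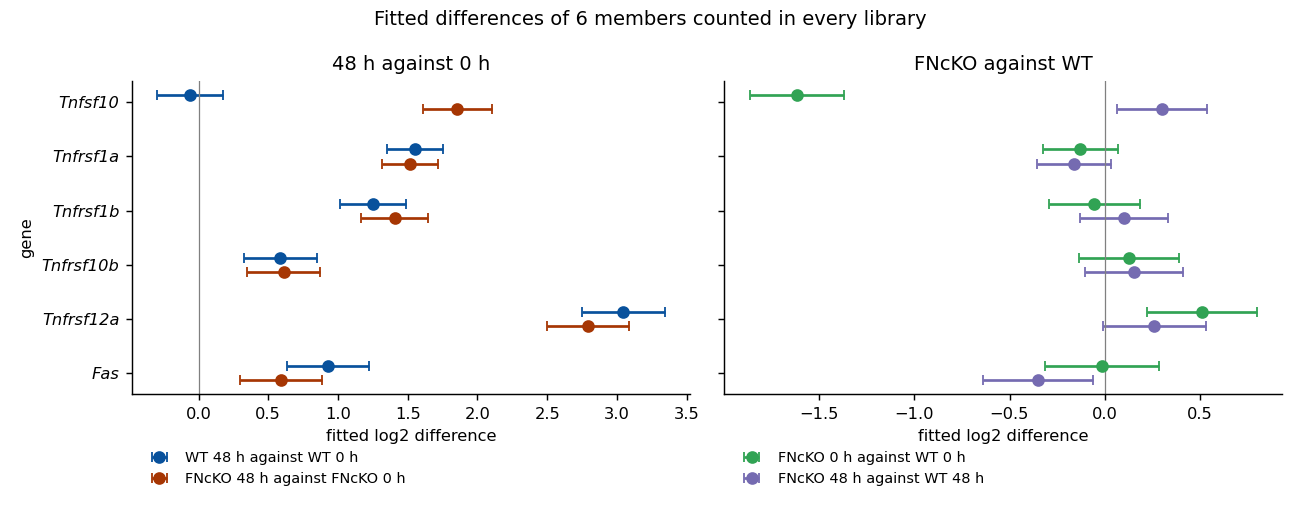
Fitted log2 differences (points) ± SE (bars) of the 6 members with counts in every library, over time in each genotype (left) and between genotypes at each time (right). Tnfsf10 stands at −0.06 in WT and 1.86 in FNcKO over time, and Fas stands at 0.93 and 0.59.

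Between the genotypes at 48 h, 0 of the 8 tested members was past the threshold by edgeR and by DESeq2, and 0 had an unadjusted p under 0.05. Of all tested genes, 0.240% were called and 9.74% had groups that did not overlap. For the difference of the 48 h responses, 0 of the 8 was past the threshold by edgeR, as was 0% of all genes tested. The count was 1 at an unadjusted p under 0.05 and 1 by DESeq2. These counts rest on the values that chose the members, and nothing is read from them. For the 5 receptors with counts in every library, that difference ran from −0.34 (Fas, SE 0.42) to 0.15 (Tnfrsf1b, SE 0.33) in log2. Values of this size are within about 1 SE of 0, which does not show that the responses were alike.

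To compare genes with each other, levels were divided by the gene length in the files (CPM per kb). In WT at 0 h Tnfrsf1a was highest, at 24.7 ± 3.50 CPM per kb (SD, n = 3), followed by Tnfrsf12a at 13.7 ± 4.67. Next came Tnfrsf1b (7.29), Tnfrsf10b (6.89) and Tnfsf10 (6.61), whose libraries overlapped from one to the next, and Fas (3.41) lay below them. In FNcKO at 0 h Tnfrsf1a (22.6) and Tnfrsf12a (19.6 ± 6.01) overlapped, and Tnfsf10 (2.15) lay below Fas (3.38) with no overlap. At 48 h Tnfrsf12a was highest in both genotypes, at 113 ± 16.5 in WT and 135 ± 38.7 in FNcKO, above Tnfrsf1a at 72.4 ± 19.3 and 64.7 ± 5.58 with no overlap. Tnfrsf1b followed at 17.4 and 18.6, overlapping Tnfrsf10b in WT and not in FNcKO. From Tnfrsf10b (10.4 and 11.5) through Tnfrsf11b (7.21 and 5.54), Tnfsf10 (6.35 and 7.81) and Fas (6.50 and 5.09), neighbouring members overlapped in both genotypes. The ligands Tnf (0.998 and 1.59) and Tnfsf11 (0.130 and 0.160) were the lowest of the 9 in both genotypes at 48 h, each below the next higher member with no overlap.

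Leukocyte markers moved with time in the same libraries. The summed level of 4 general leukocyte markers (Ptprc, Coro1a, Itgb2 and Laptm5, of which none was at 0 in a group) was 10.9 to 28.4 CPM in WT and 6.71 to 14.8 CPM in FNcKO at 0 h. At 48 h it was 279, 128 and 86.7 CPM in WT replicates 1, 2 and 3 and 47.4, 78.6 and 135 CPM in FNcKO replicates 1, 2 and 3. Macrophage and monocyte markers summed to 48.0 to 92.5 and 33.7 to 66.3 CPM at 0 h and to 205 to 555 and 159 to 331 CPM at 48 h in WT and FNcKO. Neutrophil markers summed to 4.82 to 10.2 and 3.80 to 4.73 CPM at 0 h and to 61.9 to 351 and 45.3 to 120.1 CPM at 48 h. The highest of these, Csf3r, the receptor of a granulocyte growth factor, had 25.5 to 150.3 CPM in WT and 19.7 to 45.8 CPM in FNcKO at 48 h, and Cxcr2, a chemokine receptor, had 12.1 to 98.6 and 11.4 to 26.5 CPM. Mpo, a neutrophil granule enzyme, had 1 count in all libraries together, and Ly6g was not matched by symbol. Markers of T and NK cells stayed between 0.845 and 2.76 CPM in all 12 libraries.

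Within each genotype at 48 h, the order of the libraries by Tnfrsf1a and by Tnfrsf1b was the order by general leukocyte markers, with 3 libraries each. Tnfrsf11b had another order, and its highest library, WT 48 h replicate 3, was the lowest of the WT 48 h libraries in leukocyte markers. In WT the highest Tnf level, 3.24 CPM, was in 48 h replicate 1, the library with the most leukocyte markers (279 CPM). The highest Tnf level of all, 4.81 CPM in FNcKO 48 h replicate 2, was in a library with 78.6 CPM of these markers. The part of leukocyte RNA in the members' levels was not tested. In bulk tissue, fewer cells of a type and less RNA per cell cannot be told apart.

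**Figure D3:**
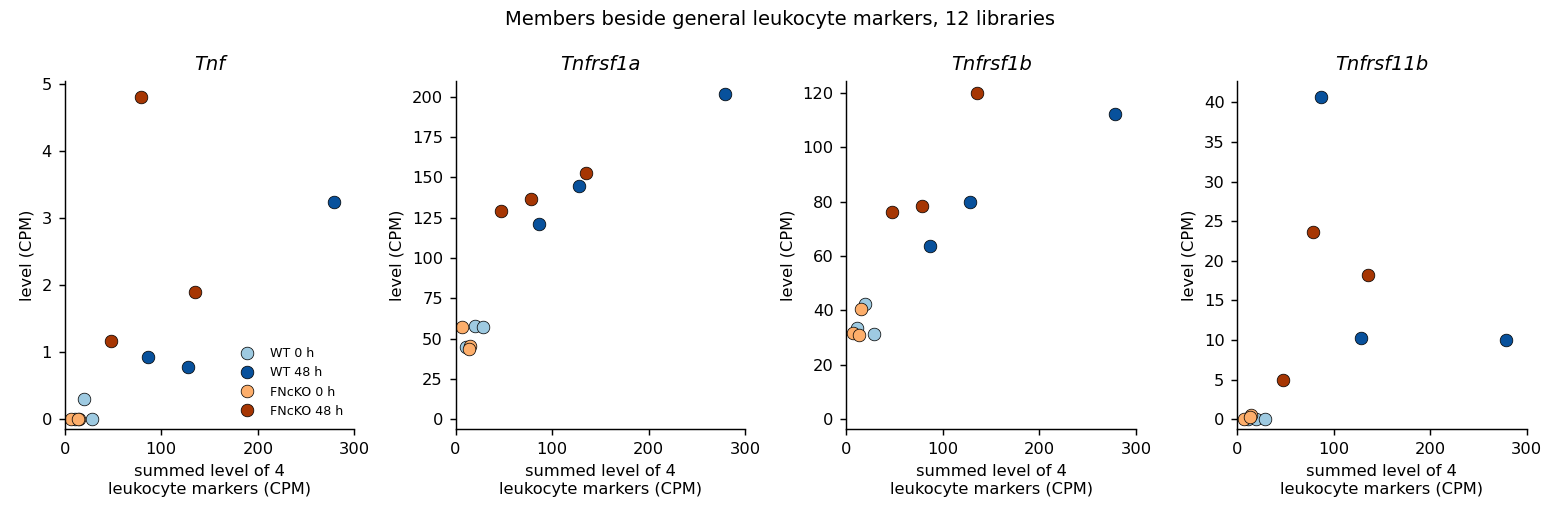
Level of Tnf, Tnfrsf1a, Tnfrsf1b and Tnfrsf11b (CPM, vertical axes that differ between panels) against the summed level of 4 general leukocyte markers (CPM) in the 12 libraries, coloured by group. Tnfrsf1a and Tnfrsf1b are high in WT 48 h replicate 1, at 279 CPM of markers, where Tnfrsf11b is at 9.99 CPM.

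The sums of other marker lists are given by their ranges. Vascular endothelial markers summed to 13.1 to 39.4 and 4.02 to 20.1 CPM at 0 h and 40.6 to 70.8 and 17.7 to 43.5 CPM at 48 h in WT and FNcKO. Kdr, the highest, averaged 25.0 and 17.5 CPM in WT at 0 h and 48 h, and 7.36 and 18.5 CPM in FNcKO. Pecam1 averaged 1.17 and 11.3 CPM in WT and 0.470 and 5.06 CPM in FNcKO. Cdh5 averaged 0.628 and 12.3 CPM, and 0.590 and 4.44 CPM. Emcn and Tie1 also had higher means at 48 h in both genotypes, and Tek in WT only. Keratocyte and fibroblast markers summed to 508 to 847 and 363 to 581 CPM at 0 h and 675 to 975 and 400.1 to 513 CPM at 48 h. Most of each sum was Pdgfra, Col1a1 and Col1a2. Kera had 6 counts in FNcKO at 48 h and none in the other groups. Lum averaged 0.169 CPM at 0 h and 4.21 CPM at 48 h in WT, and 0.0373 and 1.20 CPM in FNcKO. These sums join opposite moves. Pdgfra averaged 398 CPM at 0 h and 99.2 CPM at 48 h in WT, and 297 and 121 CPM in FNcKO. Col1a1 averaged 3.95 and 329 CPM in WT, and 6.16 and 50.6 CPM in FNcKO. Photoreceptor markers summed to 1810 to 5640 and 1033 to 3680 CPM at 0 h and 972 to 2949 and 241 to 2691 CPM at 48 h, pigment cell markers to 122 to 238 and 82.5 to 114 CPM and then 166 to 428 and 14.5 to 60.8 CPM, and corneal epithelial markers to 5.61 to 10.5 and 8.19 to 40.7 CPM and then 3.99 to 13.2 and 2.08 to 3.91 CPM. Genes of the pigment and corneal lists also moved in opposite directions in WT. Rpe65 averaged 16.9 CPM at 0 h and 0.822 CPM at 48 h there, and Tyr 6.42 and 32.5 CPM. Krt4 averaged 6.09 and 0.434 CPM, and Krt12 0.879 and 3.99 CPM. The part of these cell types in the members' levels was not tested. Osteoclast genes, shown for the RANKL ligand and its decoy, summed to 6.22 to 9.64 and 6.15 to 8.19 CPM at 0 h and 24.2 to 45.3 and 15.2 to 24.8 CPM at 48 h. Most of this was Nfatc1, at means of 4.81 and 19.2 CPM in WT and 3.62 and 12.2 CPM in FNcKO. Acp5, Ctsk, Dcstamp and Ocstamp had higher means at 48 h in both genotypes. Oscar had lower means, at 0.503 and 0.335 CPM in WT and 0.391 and 0.141 CPM in FNcKO. Calcr, the calcitonin receptor, had no count in any library.

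The remaining family genes and the signalling genes downstream were described from lists made by textbook role. These lists were made with earlier results of these data known. They were tested by edgeR (quasi-likelihood), with p adjusted by Benjamini-Hochberg over all 14560 genes, of which 19.1% were called higher in WT and 14.9% in FNcKO over time. Among the genes called higher, Ltb, Tnfsf14, Eda2r, Tnfrsf9, Cd40, Ripk3, Mlkl, Bcl3 and Traf1 reached the level of the low-count filter, 1.086 CPM, in fewer than 3 libraries at 0 h. They were tested only through their 48 h libraries and so had to be higher there. Neither their p-values nor their part in the list counts below is independent support of that direction. In each genotype they were 2 of the 2 ligands, 2 of the 4 death signalling genes and 1 of the 9 NF-kappaB genes called higher. Of the other receptors called higher they were 3 of 8 in WT and 3 of 6 in FNcKO. Of the adaptors and kinases they were 0 of 4 and 1 of 6. With no filter beyond 1 count in any library, the number of genes called higher was the same in each of the 6 lists in both genotypes. Of the 15 other ligands 6 were tested, and Ltb and Tnfsf14 were higher at 48 h in both genotypes. The list's median log2 difference was 0.42 in WT and 0.25 in FNcKO. Ltb, which encodes lymphotoxin beta, had 2 counts in WT at 0 h and 39 at 48 h, a ratio of 18.0 with an exact 95% interval of 4.66 to 154. It had 0 and 35 counts in FNcKO, at least 10.2-fold higher. The WT call was lost without WT 0 h replicate 2. Tnfsf14, which encodes LIGHT, had no count at 0 h and 83 and 35 counts at 48 h, at least 25.5-fold higher in WT and at least 10.2-fold higher in FNcKO. Cd40lg had no count in any library. In a fit of only the libraries of a comparison, fewer ligands passed the filter. There 1 of 5 tested was called in WT and 0 of 4 in FNcKO.

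Of the 22 other receptors 16 were tested, with 8 higher and 1 lower in WT and 6 higher in FNcKO, against 19.1% and 14.9% of all genes called higher, and the median log2 difference was 0.75 and 0.60. Eda2r, the receptor of an ectodysplasin isoform, rose from 0.431 ± 0.11 to 14.2 ± 4.0 CPM (SD, n = 3) in WT (edgeR, adjusted p = 3.79e-05) and from 0.937 ± 0.63 to 19.6 ± 7.4 CPM in FNcKO (adjusted p = 7.52e-05). Tnfrsf9, a costimulatory receptor of activated lymphocytes and myeloid cells, rose by 4.72 in log2 in WT and 4.08 in FNcKO (adjusted p = 0.000434 and 0.0015). Cd40, a receptor of antigen-presenting cells, rose in FNcKO from 2 counts to 60, a ratio of 26.3 with an interval of 6.96 to 222 (adjusted p = 0.00478). Its WT value of 2.38 (adjusted p = 0.0298) lost its call when WT 0 h replicate 1 or 2, WT 48 h replicate 3 or both 0 h replicate 1 libraries were left out. Eda2r, Tnfrsf9 and Cd40 passed the filter only through their 48 h libraries, so their p-values are not independent support of a rise. Tnfrsf26 rose by 3.44 in WT (adjusted p = 0.0145). Without WT 48 h replicate 1 it was not called. As Tnfrsf26 is a close paralog of Tnfrsf22 and Tnfrsf23, reads may be shared among them. Tnfrsf21, a death-domain receptor, was the one that fell in WT, by 0.77 in log2 (adjusted p = 0.0443), although its libraries overlapped. With total counts, with the replicate block, and when WT 0 h replicate 2 or 3, WT 48 h replicate 2 or 3, FNcKO 0 h replicate 1 or any FNcKO 48 h library was left out, no receptor of the list was called lower. Relt, Tnfrsf23 and Ltbr also rose in both genotypes, and Tnfrsf19 rose in WT.

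Among the 21 adaptors, ubiquitin ligases and kinases, all tested, 4 rose in WT and 6 in FNcKO and none fell, the WT count being close to the 19.1% of all genes. The median log2 difference was 0.22 and 0.17. Birc3, a ubiquitin ligase of the receptor complex, rose by 2.57 in WT and 2.41 in FNcKO (edgeR, adjusted p = 0.00179 and 0.00374). Traf1, an adaptor, rose by 2.89 in FNcKO (adjusted p = 0.0103), a call lost without both 0 h replicate 1 libraries, and differed by 1.30 in WT (adjusted p = 0.135). Traf1 passed the filter only through its 48 h libraries, so its p-values are not independent support of a rise. Ripk1, the kinase that TNFR1 recruits, rose by 0.72 in WT and Traf3 by 0.69 (adjusted p = 0.0247 and 0.00528). Ripk1 lost its call when WT 0 h replicate 2 or 3 or WT 48 h replicate 1 was left out. Map3k14, the kinase of the noncanonical NF-kappaB pathway, rose by 0.99 in FNcKO (adjusted p = 0.00185). Ripk1 and Traf3 were also called higher in FNcKO, and Map3k14 in WT. The Ripk1 call in FNcKO and the Map3k14 call in WT were each lost under some alternatives. The WT count was 7 with total counts in place of TMM and 2 without WT 0 h replicate 2, and the FNcKO count was 3 without both 0 h replicate 1 libraries and 3 in a fit of only its own libraries.

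Of the 10 death signalling genes, all tested, 4 rose in each genotype, against 19.1% and 14.9% of all genes, and none fell, with a median log2 difference of 0.41 in WT and 0.44 in FNcKO. Casp8, Ripk3 and Mlkl were among them in both. Casp8, the initiator caspase of death receptors, rose from 6.28 ± 1.6 to 29.9 ± 8.1 CPM in WT and from 7.84 ± 2.3 to 33.7 ± 11 CPM in FNcKO (SD, n = 3; edgeR, adjusted p = 0.000293 and 0.000603). Ripk3 and Mlkl act in necroptosis. Ripk3 had 3 counts in WT at 0 h and 157 at 48 h, and Mlkl had 1 and 170. Their ratios had exact 95% intervals of 16.2 to 237 and 27.8 to 6230. In FNcKO the fitted log2 difference was 2.42 (SE 0.62) for Ripk3 and 3.96 (SE 0.82) for Mlkl. Without FNcKO 48 h replicate 3, the FNcKO count of the list was 2 and Ripk3 lost its call.

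Among the 12 NF-kappaB subunits and feedback inhibitors, all tested, 9 rose in each genotype, against 19.1% and 14.9% of all genes, and none fell. The median log2 difference was 1.23 in WT and 1.52 in FNcKO, and the counts ran from 8 to 9 in WT and from 8 to 11 in FNcKO over the alternatives. Bcl3, a nuclear IkappaB protein, rose from 0.571 ± 0.053 to 42.6 ± 3.2 CPM (SD, n = 3) in WT (log2 6.19, edgeR, adjusted p = 2.56e-08) and from 1.09 ± 0.33 to 39.9 ± 3.8 CPM in FNcKO (log2 5.17, adjusted p = 7.51e-08). Bcl3 passed the filter only through its 48 h libraries, so its p-values are not independent support of a rise. Relb and Nfkb2, the subunits of the noncanonical pathway, rose by 2.29 and 2.02 in WT and by 2.51 and 2.49 in FNcKO (adjusted p = 8.5e-05, 1.85e-05, 7.01e-05 and 5.78e-06). Nfkbia, Nfkbie, Nfkb1, Tnip1 and Rela were also higher in both, with Nfkbib as the ninth in WT and Tnfaip3 in FNcKO. Rela lost its FNcKO call in a fit of only the libraries compared and when WT 0 h replicate 2, FNcKO 0 h replicate 2 or 3 or FNcKO 48 h replicate 3 was left out.

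Of the 6 genes of TNF processing and shedding, all tested, Furin and Rhbdf1 rose in both genotypes, against 19.1% and 14.9% of all genes, and none fell, with a median log2 difference of 0.24 in WT and 0.16 in FNcKO. Furin, a proprotein convertase that activates sheddases, rose from 122 ± 3.8 to 296 ± 26 CPM in WT and from 123 ± 9.8 to 286 ± 56 CPM in FNcKO (SD, n = 3; edgeR, adjusted p = 0.000156 and 0.00032). Rhbdf1, an inactive rhomboid that traffics the TNF sheddase, rose by 0.71 in WT and 0.73 in FNcKO (adjusted p = 0.0116 and 0.0129). It lost its call in WT when WT 0 h replicate 2, WT 48 h replicate 1 or both 0 h replicate 1 libraries were left out, and without FNcKO 0 h replicate 2 or FNcKO 48 h replicate 3 in FNcKO.

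Between the genotypes, 0 of the 71 tested genes of the 6 lists was past edgeR's threshold at 48 h, at 0 h or for the difference of the 48 h responses. Of all 14560 tested genes, 0.240%, 0.144% and 0% were called there. With so few genes called, nothing is read from the counts of 0. At an unadjusted p under 0.05 there were 4, 3 and 3 of the 71, against 796, 1603 and 735 of all 14560. DESeq2 called 1 (Tnfrsf19, at 48 h), 0 and 0 of the 71, against 122, 130 and 28 of all genes. The gene of highest level in each list, other than Tnfsf12, was Ngfr, Tab2, Xiap, Rela and Timp3. The log2 difference at 48 h was 1.08 (SE 0.41) for Ngfr, the neurotrophin receptor, −0.05 for Tab2, −0.20 for Xiap, 0.04 for Rela and 0.06 for Timp3.

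**Figure D4:**
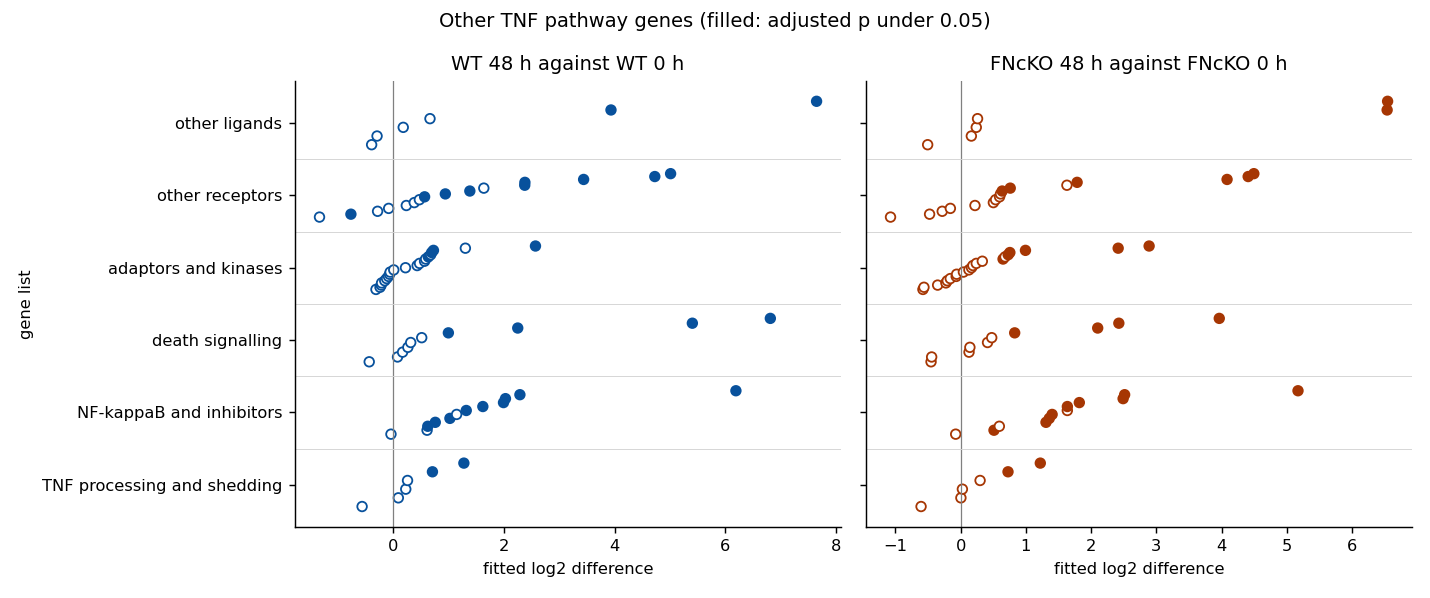
Fitted log2 differences between 48 h and 0 h in WT (left) and FNcKO (right) for the tested genes of 6 lists of the TNF pathway that leave out the 9 members; filled points had an adjusted p under 0.05. In the NF-kappaB list, 9 of 12 points are filled in each genotype, all to the right of 0.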

How the data were processed

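The members and the gene lists were chosen with earlier results of these data known. The authors deposited 1 whole-number read count per gene and library for 24147 genes, with coordinates, a length and an RPKM value. The deposited RPKM equals the count per length and library total to within 1.4e-14 of its value and served only for that check. The submitters' processing notes name FastQC, Trim Galore 0.4.4, TopHat2 2.1.0, bedtools 2.17, SAMtools 1.4, HTSeq 0.6.1p1 and edgeR 3.16.5 with mm10, without roles. The sources used here give no annotation, strand setting or handling of multi-mapping reads. The 163 entries with a repeated symbol were kept apart. In a combined table the column named for WT 0 h replicate 1 holds, for all 24147 genes, what the FNcKO 0 h replicate 1 file holds. The library's own file was used.

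In R 4.3.3, edgeR 4.0.16 (filterByExpr, TMM, robust quasi-likelihood F test) was fitted to 4 group means over 12 libraries and 14560 genes, with Benjamini-Hochberg adjustment over all of them. The SE is the size of the log2 value divided by the square root of F. The 5 comparisons were 48 h against 0 h in each genotype, FNcKO against WT at each time, and the difference of the 48 h responses. Named from each list were up to 3 called genes of largest log2 difference in each comparison; lists with no call give the gene of highest mean level, and the neutrophil list, whose sum differed most, gives its 2 highest. Tnfrsf21, Relt, Tnfrsf23, Ltbr, Tnfrsf19, Cd40lg, Calcr, Mpo and the other NF-kappaB genes in the text were added after their values were seen. Results of some single genes are not reported here. Exact intervals and limits of a count of 0 (3 counts) cover counting error only. Fold values given as "at least" take the counts of the other group as exact. Alternatives were DESeq2 1.42.0, RLE factors, total counts, other filters, a replicate block, fewer groups in the fit, no robust dispersion and left-out libraries. On simulated counts the model recovered 31% of 2-fold and 75% of 4-fold changes in the WT comparison over time and 26% and 82% in FNcKO. For FNcKO against WT it recovered 28% and 79% at 48 h and 32% and 76% at 0 h. Recovery of the response difference was 9% and 64%. Each percentage is over the genes altered by that amount in a single simulated set of 14560 genes, of which few were altered.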

Additional observations from a re-analysis of the deposited data

How the results depend on the processing

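No called log2 value named here changed direction under the 21 alternatives. The fitted value of Tnf and Tnfrsf11b, which had 0 counts in whole groups, and of Fas moved by more than their spread when single libraries were left out. Over all genes, 3611 were past the threshold over time in FNcKO, 2299 without both 0 h replicate 1 libraries, and 2232 to 4095 with each of the 12 libraries left out in turn. The lowest was without FNcKO 48 h replicate 3. In WT over time the count was 4745 and ran from 3209 to 5220. Between genotypes at 48 h it was 35, 122 with DESeq2, 7 in a fit of only the groups compared, 14 without both 0 h replicate 1 libraries, and 10 to 46 with single libraries left out. At 0 h it was 21, 130 with DESeq2, 10 with total counts, 2 without both 0 h replicate 1 libraries, and 2 to 28. For the difference of the responses it was 0 (735 genes at an unadjusted p under 0.05), 28 with DESeq2 and 0 to 1 with single libraries left out. Members past the threshold at 0 h were 1, 0 without both 0 h replicate 1 libraries and 0 to 1 with single libraries left out; for the difference of the responses they were 0, and 1 with DESeq2. The causes were not tested.

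No pairing of the libraries by replicate number was seen, though 3 libraries in each group cannot exclude a pairing or a shared batch. Same-numbered libraries had correlations of their deviations from −0.474 to 0.291, and no comparison had all 3 above 0.1. With the replicate number as a block, the count for the difference of the responses was 1, and 5 members in place of 6 were past the threshold in WT over time. With total counts the median log2 difference of all genes was 0.226 in WT and 0.286 in FNcKO over time, and the share of called genes that were higher was 76.3% and 82.4% in place of 58.5% and 60.1%. Between genotypes it was 3.57% in place of 17.1% at 48 h and 30% in place of 52.4% at 0 h. Changes of 2-fold were mostly missed in simulated counts. That simulation altered few genes, with 112 and 116 calls over time in WT and FNcKO, against 4745 and 3611 in the data. The adjusted threshold is stricter when few genes are called, so the recovery may be understated for the comparisons over time. Members short of the threshold are still not shown to be unchanged.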

Other observations

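The genes whose levels followed each member most closely over the 12 libraries were taken by the highest Pearson r of log2 CPM, as a description. All points share the step between 0 h and 48 h. Tnf was closest to Ccl4, a chemokine gene (r = 0.976). Tnfrsf1a was closest to Gp49a and Fgr, both known from myeloid cells (r = 0.993 for each), and Tnfrsf1b to Siglec5 (0.977) and Cxcl1 (0.976). Gpc1, a glypican gene, was among the 2 closest to Tnfrsf12a (0.988), and Tnfrsf11b was closest to Ecd (0.990) and the transcription factor gene Ets1 (0.989). Fas was closest to H2-K1, an MHC class I gene (0.903), and Mgp (0.902), Tnfsf10 to Dclk2 (0.944) and Spc25 (0.910), and Tnfrsf10b to Mrpl35 (0.948) and Brip1 (0.939).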
